A study of Mus musculus with 12 samples.

Results

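Osteoclasts from mice with a Notch2 mutation, a Hes1 deletion, both or neither were examined for 10 genes. Ctsk, the gene of cathepsin K, is not among them. The genes are the lysosomal proteases Ctsa, Ctsb, Ctsc, Ctsd, Ctsh, Ctsl, Ctss, Ctsz and Lgmn, and the protease inhibitor Cst3. They were taken by name, 10 of the 55414 gene identifiers in the count tables, and the question was whether they move when Ctsk falls. All 10 passed the filter on low counts. Bone marrow macrophages of male mice of 7 to 8 weeks were grown with the growth factor M-CSF at 30 ng/ml. From day 3 they were kept for 4 days with M-CSF plus RANKL, a cytokine of the TNF family that turns such precursors into osteoclasts. There were 4 groups of 3 libraries: Notch2 mutant Hes1 deletion, Wild type Hes1 deletion, Notch2 mutant Hes1 loxP and Wild type Hes1 loxP. In the loxP groups, which served as controls of the deletion, Hes1 is flanked by loxP sites. The sources used here give neither the kind of Notch2 mutation nor the agent that removed Hes1, and whether the deletion lines carry any other change, at Ctsk or elsewhere, was not tested. The labels call the libraries of a group biological replicates and do not tie them to animals, so p-values measure the spread between these cultures.

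Osteoclasts are multinucleated cells of the macrophage lineage that dissolve bone in a sealed, acid compartment. Cathepsin K, a cysteine protease, is the main enzyme that cuts bone collagen there. The other cathepsins work mostly inside lysosomes, where they break down protein and trim each other's precursors, and their roles differ by chemistry. Ctsb, Ctsc, Ctsh, Ctsl, Ctss and Ctsz encode cysteine proteases of the papain family, Ctsd an aspartic protease, Ctsa a serine carboxypeptidase and Lgmn the asparagine-specific protease legumain. Cst3 encodes cystatin C, a secreted inhibitor of papain-family proteases. Notch2 is a receptor whose cleaved form acts with the DNA-binding protein RBPJ, and Hes1 is a repressor that Notch signals induce.

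Each library held 13832368 to 19293772 counts on genes. The member genes had between 968 counts (Ctsh) and 58554 counts (Ctsb) in a library. Hes1 itself was scarce, with 2 counts in the Notch2 mutant Hes1 deletion libraries and 2 in the Wild type Hes1 deletion libraries, summed over 3 libraries each. The Notch2 mutant Hes1 loxP libraries held 7 and the Wild type Hes1 loxP libraries 23. Single libraries ranged from 0 to 0.122 CPM of Hes1 in the deletion groups and from 0.113 to 0.573 CPM in the loxP groups, too few counts to check each label. Notch2 averaged 159 to 169 CPM in the 4 groups, which does not show which libraries carry the mutation. Replicate 3 of Wild type Hes1 deletion stood apart from its 2 fellow libraries, with a chi-square per gene of 8.41 and 8.04 against 2.40 between those fellows. That 2.40 was the lowest of all pairs within a group. Replicates 2 and 3 of Notch2 mutant Hes1 loxP reached 7.77, and pairs of Wild type Hes1 loxP ran from 5.01 to 6.06. The 13 osteoclast markers were all detected and summed to between 32403 and 54197 CPM (counts on a gene relative to the library's TMM-scaled total).

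Ctss and Ctsk are neighbours. On chromosome 3 (GRCm38, GENCODE M21) Ctsk spans 95499256 to 95509362 and Ctss spans 95526786 to 95556403, both on the plus strand. They lie 17423 bases apart, with 0 annotated genes wholly between them. The other members lie apart from them: Ctsa, Ctsz and Cst3 on chromosome 2, Ctsc and Ctsd on 7, Ctsh on 9, Lgmn on 12, Ctsl on 13 and Ctsb on 14. Notch2 lies on chromosome 3 as well, 2.457 Mb from Ctss and 2.504 Mb from Ctsk. The 250 bases before the start of Ctsk, which fell with the Hes1 deletion, of its neighbour Ctss and of Ctsd, which holds an E-box, are shown from RefSeq (GRCm38.p6). Their positions are chr3:95498960-95499209 for Ctsk and chr3:95526536-95526785 for Ctss, both on the plus strand, and chr7:142387828-142388077 for Ctsd on the minus strand. The RefSeq start of Ctsd lies 211 bases inside the GENCODE gene. That of Ctsk lies at -46 bases from the GENCODE gene start, thus before it, and the bases after it were not found in a GENCODE transcript. Capitals mark CACGTG, the E-box that MITF and TFEB, activators of lysosomal genes, can bind.
Ctsk: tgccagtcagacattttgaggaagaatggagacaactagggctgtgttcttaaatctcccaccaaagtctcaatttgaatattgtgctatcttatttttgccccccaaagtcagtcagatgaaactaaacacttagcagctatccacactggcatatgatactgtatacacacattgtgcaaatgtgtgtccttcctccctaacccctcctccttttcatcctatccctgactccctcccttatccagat
Ctss: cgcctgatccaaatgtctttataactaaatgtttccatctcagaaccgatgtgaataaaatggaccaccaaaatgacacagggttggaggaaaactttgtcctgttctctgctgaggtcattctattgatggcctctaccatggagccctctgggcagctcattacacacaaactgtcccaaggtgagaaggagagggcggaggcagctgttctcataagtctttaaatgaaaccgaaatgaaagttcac
Ctsd: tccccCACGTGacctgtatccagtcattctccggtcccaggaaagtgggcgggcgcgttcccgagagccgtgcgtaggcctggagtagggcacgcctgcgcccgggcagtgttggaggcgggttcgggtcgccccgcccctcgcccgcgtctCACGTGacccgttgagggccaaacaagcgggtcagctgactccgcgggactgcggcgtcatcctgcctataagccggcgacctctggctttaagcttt
A promoter window was found for 8 of the 10 members and for Ctsk, and 4 motifs were searched on both strands. None of the motifs overlaps another in these windows. Neither the Ctsk nor the Ctss window held TGGGAA (the RBPJ core), CACNAG or CACGCG (sites that HES1 can bind) or CACGTG. The Ctsd window held CACGTG at 2 places and none of the other letters. CACGTG was also in a window of Ctsa, of Ctsl and of Lgmn, at RefSeq starts 900, 370 and 721 bases inside the GENCODE gene. Ctsa and Lgmn each had a second window, at -1 and 85 bases from the gene start, which held none of the motifs. The bases after the Lgmn start at 721 and after the Ctsa start at -1 were not found in a GENCODE transcript. Windows of Ctsa, Ctsc, Ctsz and Lgmn held CACNAG, that of Cst3 held TGGGAA, and no member window held CACGCG. Among all 32851 windows of the same length, 21.6% held TGGGAA, 36.7% CACNAG, 7.62% CACGCG and 6.02% CACGTG. A match of letters is not a binding site, and no match says only that the letters are absent from this window.

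Ctsk was above each of the 10 other genes examined, also where it was lowest. Levels were compared between genes as CPM per kilobase of the main transcript, a scale used in this paragraph and for the summed levels below. Over the 12 libraries Ctsk averaged 4866 CPM per kilobase, with 2627 in the lowest library. Cst3 followed at 976 CPM per kilobase, then Ctsz, an exopeptidase also called cathepsin X, at 846. Ctsb and Ctsd, which cut proteins of many kinds, stood at 649 and 643 CPM per kilobase. Ctsb was above Ctsd in 7 of 12 libraries, so their order is not set. The same holds for Ctsl at 398 and Ctss at 377 CPM per kilobase, with Ctsl above in 7 of 12. Ctsa followed at 278, Ctsc at 191, Lgmn at 172 and Ctsh, an aminopeptidase, last at 42.5 CPM per kilobase. The ranges of Cst3 and Ctsz overlapped, as did those of Ctss and Ctsa, yet the first-named gene of each pair was above in all 12 libraries. Ctsc was above Lgmn in 11 of 12 libraries. Exons shared with other annotated genes make 3 of these levels uncertain. These hold 34.4% of the exon bases of Ctsd, shared with Gm49369 on the same strand, 17.4% of those of Ctsa and 12.8% of those of Ctsb, shared with genes on the opposite strand. Gm49369 itself had 0 counts in every library. Exons of the Ctsl gene also overlap Gm47123 and Gm49230, but its main transcript shares 0 stretches of 75 bases with another gene.

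**Figure D1:**
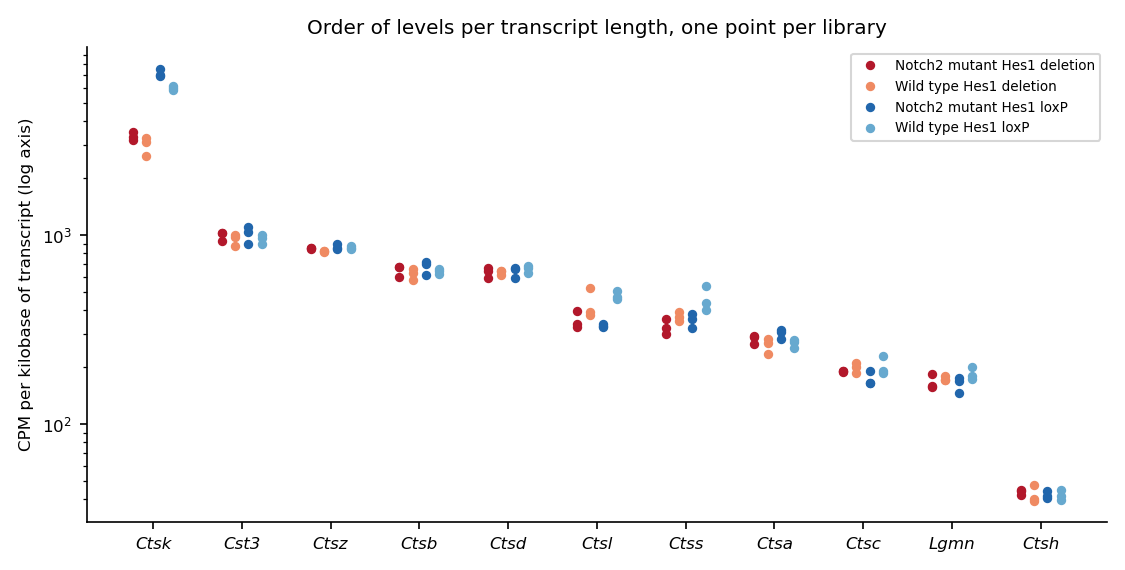
Level of each gene in CPM per kilobase of transcript, on a log axis, with 1 point per library, coloured by group (3 libraries each). Ctsk lies between 2627 and 7580 in all 12 libraries, above the other 10 genes plotted, and Ctsh lies lowest, between 39.2 and 47.8.

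With Hes1 deleted, Ctsk fell in both genotypes, while none of the 10 other genes was called in either. Ctsk had 4969, 4823 and 5305 CPM in Notch2 mutant Hes1 deletion libraries, against 10544, 10476 and 11461 CPM in Notch2 mutant Hes1 loxP libraries. It had 4921, 4709 and 3972 CPM in Wild type Hes1 deletion libraries, against 8793, 9066 and 9248 CPM in Wild type Hes1 loxP libraries. The groups did not overlap in either genotype. The log2 fold change of the CPM level was -1.11 ± 0.07 (SE) in Notch2 mutant cells, with an adjusted p of 8.89e-08 in edgeR's quasi-likelihood test over all 13403 genes tested. It was -0.99 ± 0.07 in wild type cells (edgeR adjusted p = 4.84e-07) and -1.05 ± 0.05 averaged over both genotypes (edgeR adjusted p = 6.14e-10). Less RNA of a gene and fewer cells that make it cannot be told apart in such bulk samples.

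With the filter on low counts, none of the 10 other genes passed the test with the Hes1 deletion. All their values were closer to 0 than that of Ctsk. Averaged over both genotypes, edgeR called 0 of 10, against 0.0821% of all genes tested, and DESeq2 and limma-voom also called 0. At an unadjusted p under 0.05 in edgeR there was 1 gene of the 10, Ctss, against 923 of all 13403 genes tested. The log2 fold changes of the 10 genes ran from -0.21 to 0.06, with a median of -0.03 against a median of 0.00 over all genes tested. Of the 10, 2 were positive (Ctsc and Ctsh) and 8 negative. In wild type cells edgeR called 0 of 10, against 0.0373% of all genes, with 1 at an unadjusted p under 0.05, against 795 of all 13403. In Notch2 mutant cells it called 0 of 10, also against 0.0373%, with 0 at an unadjusted p under 0.05, against 638 of all 13403. DESeq2 and limma-voom called 0 of 10 in each genotype.

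**Figure D2:**
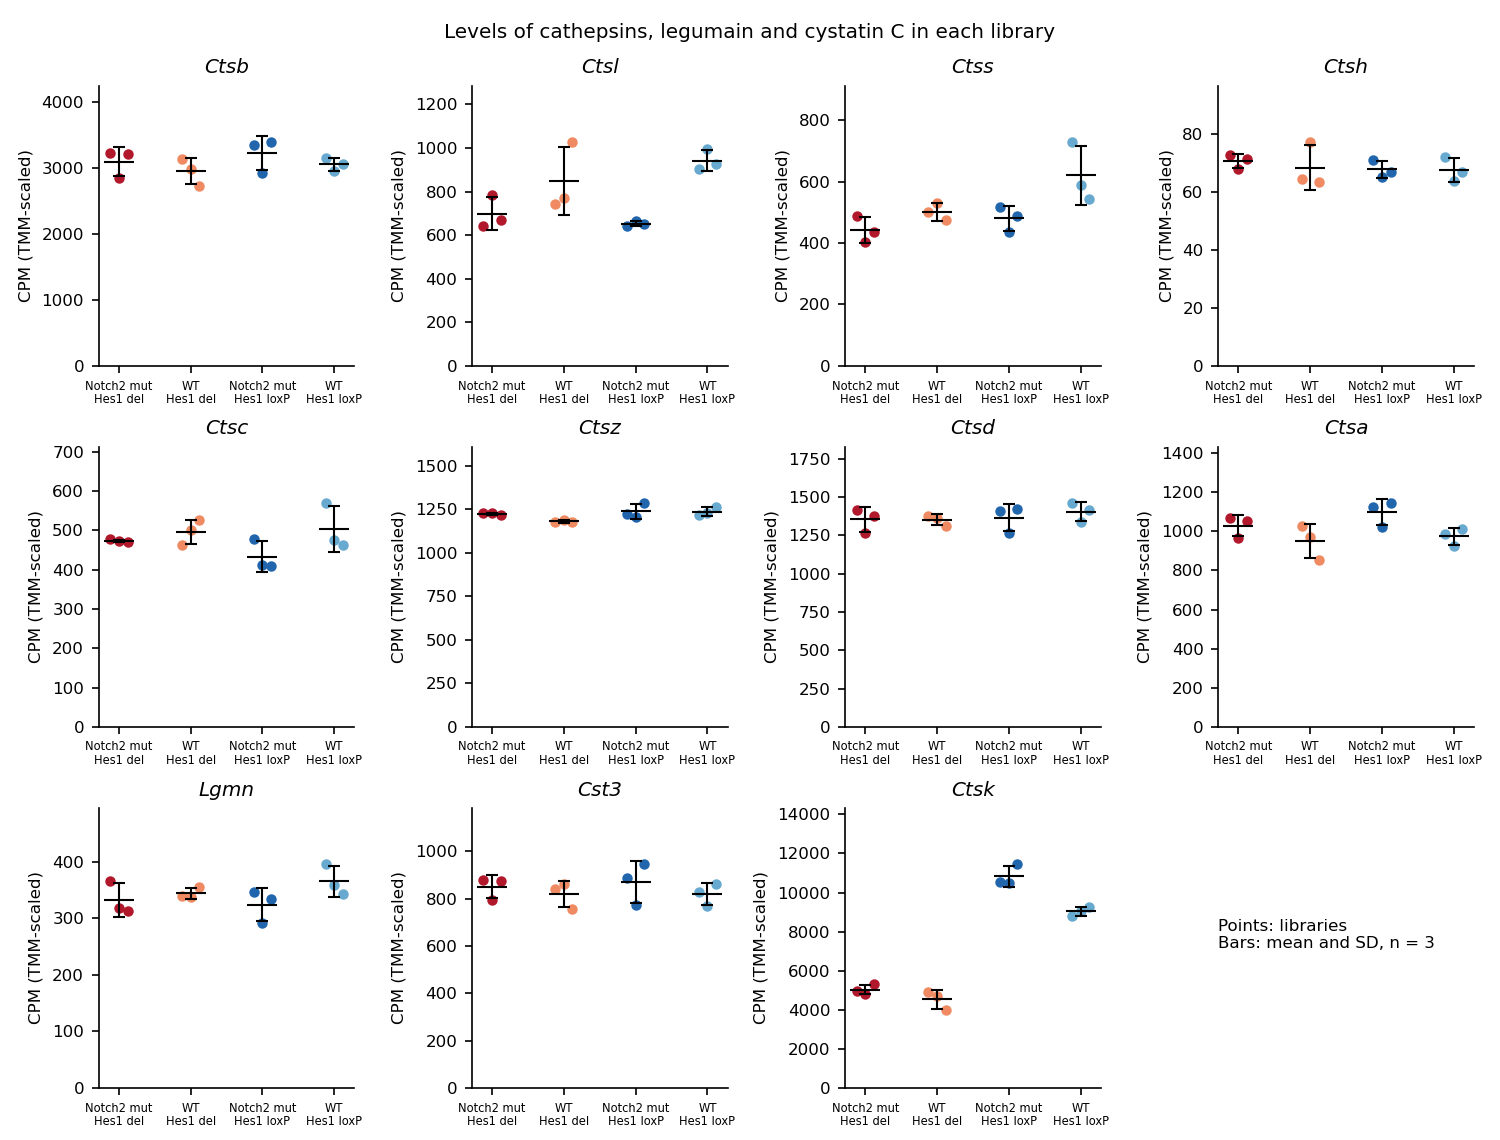
Level of each gene in CPM, with 1 point per library and the mean ± SD of each group of 3. In the Ctsk panel the 6 Hes1 deletion libraries lie between 3972 and 5305 CPM, below the 6 loxP libraries at 8793 to 11461 CPM, and no other panel shows such a gap.

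Ctss, a cysteine protease that trims the invariant chain of MHC class II, was the gene with the most negative value. Ctss had 501, 531 and 474 CPM in Wild type Hes1 deletion libraries, against 729, 588 and 544 CPM in Wild type Hes1 loxP libraries. It had 488, 403 and 435 CPM in Notch2 mutant Hes1 deletion libraries, against 517, 437 and 488 CPM in Notch2 mutant Hes1 loxP libraries. The groups did not overlap in wild type cells and overlapped in Notch2 mutant cells. The log2 fold change was -0.30 ± 0.09 in wild type cells (SE, edgeR adjusted p = 0.516), and -0.18 without replicate 1 of Wild type Hes1 loxP, its highest library. In Notch2 mutant cells it was -0.12 ± 0.09 (edgeR adjusted p = 0.977). Averaged over both genotypes it was -0.21, with a 95% interval from -0.35 to -0.08 that does not reach the value of Ctsk (edgeR adjusted p = 0.413). With no filter on low counts, Ctss was called lower in wild type cells (edgeR adjusted p = 9.94e-07). It was then also called averaged over both genotypes (edgeR adjusted p = 1.02e-06). This was 1 of 20 alternatives in wild type cells and 1 of 19 averaged.

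Ctsl, an endopeptidase that also matures other lysosomal enzymes, had 744, 771 and 1028 CPM in Wild type Hes1 deletion libraries, against 904, 995 and 928 CPM in Wild type Hes1 loxP libraries. It had 640.3, 783 and 669 CPM in Notch2 mutant Hes1 deletion libraries, against 639.96, 664 and 653 CPM in Notch2 mutant Hes1 loxP libraries. The groups overlapped in both genotypes, and replicate 3 of Wild type Hes1 deletion was the highest of all 12 libraries. The log2 fold change in wild type cells was -0.15 ± 0.09 (SE, edgeR adjusted p = 0.904), and -0.32 without that library (edgeR adjusted p = 0.0682). In Notch2 mutant cells it was 0.10 ± 0.09 (edgeR adjusted p = 0.977).

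The enzymes that cut protein broadly were nearly level between Hes1 states. Ctsb, the most counted of the 10 genes, had 3128, 2989 and 2731 CPM in Wild type Hes1 deletion libraries, against 3150.1, 2949.9 and 3059 CPM in Wild type Hes1 loxP libraries. Ctsd, the main aspartic protease of lysosomes, had 1378, 1364 and 1312 CPM in Wild type Hes1 deletion libraries, against 1461, 1335 and 1416 CPM in Wild type Hes1 loxP libraries. Both genes overlapped between the groups, as they did in Notch2 mutant cells. The averaged log2 fold change of Ctsb was -0.05, with a 95% interval from -0.15 to 0.04, and that of Ctsd was -0.03, with an interval from -0.12 to 0.05.

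Among the exopeptidases, Ctsz had the narrowest bounds. Ctsz had 1173, 1187 and 1179 CPM in Wild type Hes1 deletion libraries, against 1217, 1229 and 1263 CPM in Wild type Hes1 loxP libraries. These groups did not overlap, which with Ctss made 2 of 10 genes, both lower, against 5.17% of all genes tested that were lower and 10.3% in either direction. In Notch2 mutant cells 0 of 10 genes had groups that did not overlap, against 10.6% of all genes. With both genotypes together, 6 libraries against 6, it was 0 of 10, against 0.343% of all genes. The averaged log2 fold change of Ctsz was -0.04, with a 95% interval from -0.10 to 0.02 (edgeR adjusted p = 0.846). Over all 12 libraries Ctsz had a coefficient of variation of 2.65%, the lowest of the 10 genes, and that of Ctsk was 38.0%. Ctsa, which also shields sialidase and beta-galactosidase from breakdown, had an averaged log2 fold change of -0.06, with an interval from -0.16 to 0.03. Ctsc, which activates serine proteases of immune cells, stood at 0.06 (-0.05 to 0.16) and Ctsh at 0.04 (-0.06 to 0.15).

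Legumain and the inhibitor were as close between Hes1 states. Lgmn, which cuts after asparagine and matures other cathepsins, had 340.1, 338 and 355 CPM in Wild type Hes1 deletion libraries, against 396, 359 and 343 CPM in Wild type Hes1 loxP libraries. Cst3 had 842, 859.9 and 755 CPM in Wild type Hes1 deletion libraries, against 829.5, 767 and 860.3 CPM in Wild type Hes1 loxP libraries. Both overlapped between the groups. The averaged log2 fold change of Lgmn was -0.02, with a 95% interval from -0.13 to 0.08, and that of Cst3 was -0.02, with an interval from -0.12 to 0.09. None of the 10 intervals reached -0.95, the upper end of the interval of Ctsk, whose lower end was -1.15.

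The values of wild type cells were also taken without replicate 3 of Wild type Hes1 deletion, which stood apart from its fellows and held the least Ctsk. The log2 fold change of Ctsk with the Hes1 deletion was then -0.91 in wild type cells (edgeR adjusted p = 5.08e-08) and -1.01 averaged over both genotypes (edgeR adjusted p = 8.99e-12). EdgeR again called 0 of the 10 other genes in both comparisons. In wild type cells Ctss then stood at -0.27, Ctsa at 0.03 (against -0.04 with the library), Ctsb at 0.00 and Cst3 at 0.05, and the most negative value was that of Ctsl.

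**Figure D3:**
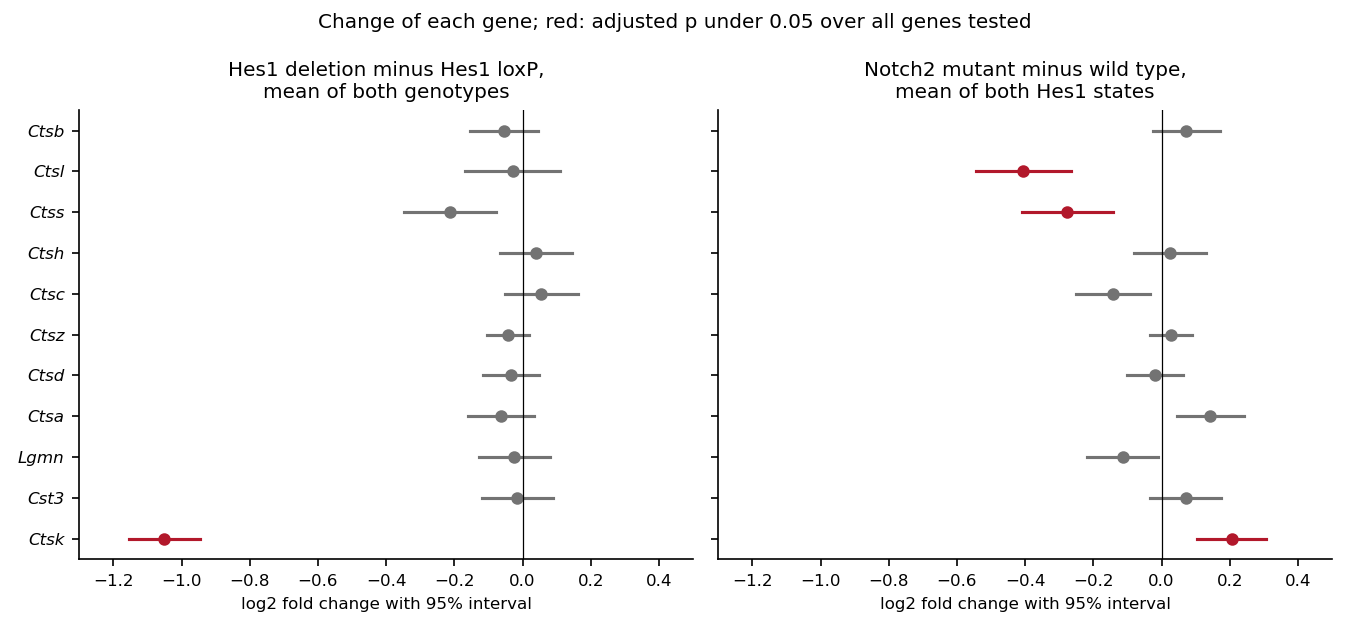
Log2 fold change of each gene with its 95% interval, for the Hes1 deletion averaged over both genotypes (left) and the Notch2 mutation averaged over both Hes1 states (right), with called genes in red. On the left Ctsk stands alone at -1.05, and on the right Ctsl at -0.41 and Ctss at -0.28 lie below 0 and Ctsk at 0.21 above it.

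The balance between the other proteases and Ctsk was about 2.00 times as high with Hes1 deleted. The levels of the 9 proteases other than Ctsk were summed in CPM per kilobase. The sum was 3594, 3396 and 3510.2 in Notch2 mutant Hes1 deletion libraries, against 3639.95, 3339.58 and 3654 in Notch2 mutant Hes1 loxP libraries. It was 3547, 3563 and 3544 in Wild type Hes1 deletion libraries, against 3935, 3706 and 3737 in Wild type Hes1 loxP libraries. The Notch2 mutant groups overlapped, and the wild type groups did not, with a fold of 0.937. The sum divided by the level of Ctsk averaged 1.05 ± 0.05 in Notch2 mutant Hes1 deletion libraries and 0.495 ± 0.023 in Notch2 mutant Hes1 loxP libraries (SD, n = 3 each). It averaged 1.19 ± 0.14 in Wild type Hes1 deletion libraries and 0.635 ± 0.036 in Wild type Hes1 loxP libraries (SD, n = 3 each). The 6 deletion libraries lay between 1.00 and 1.35 and the 6 loxP libraries between 0.482 and 0.677, with no overlap. The highest ratio, 1.35, was that of replicate 3 of Wild type Hes1 deletion, and the next was 1.14. The log2 ratio of deletion to loxP was 0.997, and 0.943 without that library. Ctsk held 47.2% of the summed level of these 10 lysosomal proteases in the deletion libraries, against 64.0% in the loxP libraries. The genes were chosen with the fall of Ctsk known, so the ratio is a description and carries no test.

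**Figure D4:**
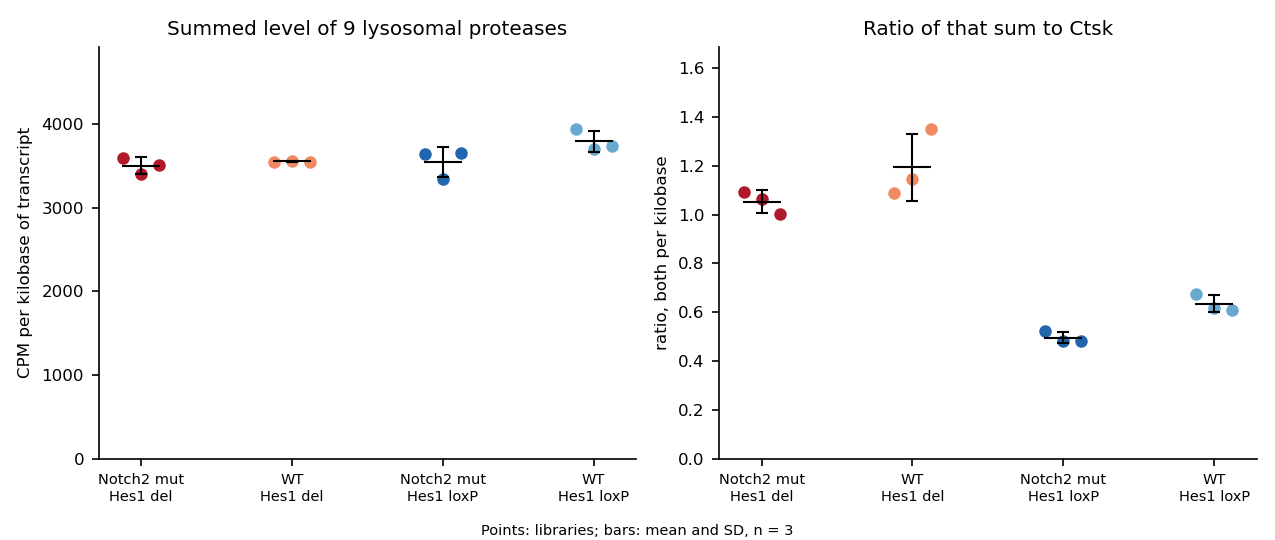
Summed level of the 9 proteases other than Ctsk in CPM per kilobase (left) and its ratio to Ctsk (right), with 1 point per library and the mean ± SD of each group of 3. The sums lie between 3340 and 3935 in all groups, and the ratio lies at 1.00 to 1.35 in the deletion libraries and at 0.482 to 0.677 in the loxP libraries.

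The Notch2 mutation went with less Ctsl and Ctss and with more Ctsk. Ctss and Ctsk lie on the chromosome of Notch2, and whether mutant and wild type lines differ in other sequence there was not tested. Averaged over both Hes1 states, edgeR called 2 of the 10 genes, both lower, against 1.12% of all genes tested that were lower and 1.89% in either direction. DESeq2 and limma-voom also called 2. For 0 of 10 genes did the 6 mutant and the 6 wild type libraries fail to overlap, against 1.43% of all genes. At an unadjusted p under 0.05 there were 5 of 10, which adds Ctsa, Ctsc and Lgmn, against 2180 of all 13403 genes. Ctsl fell, with a log2 fold change of -0.41 ± 0.07 (SE, edgeR adjusted p = 0.00485), and was called under all 19 alternatives run. Ctss fell as well, at -0.28 ± 0.06 (edgeR adjusted p = 0.0345), and was called under 13 of the 19, with adjusted p up to 0.106. Ctsk rose by 0.21 ± 0.05 on the log2 scale (edgeR adjusted p = 0.0364) and was called under 13 of the 19, with adjusted p up to 0.124. The call of Ctss was lost without any 1 of 6 libraries: replicate 1 of Wild type Hes1 loxP, replicates 2 and 3 of Notch2 mutant Hes1 loxP, replicate 2 of Wild type Hes1 deletion, and replicates 2 and 3 of Notch2 mutant Hes1 deletion. That of Ctsk was lost without replicate 1 or 2 of Wild type Hes1 loxP, replicate 1 or 3 of Notch2 mutant Hes1 loxP, or replicate 1 or 3 of Notch2 mutant Hes1 deletion. This comparison and those of the Hes1 deletion use the same 12 libraries.

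In loxP cells the Ctsl groups stood apart. Ctsl was at 639.96, 664 and 653 CPM in Notch2 mutant Hes1 loxP libraries, against 904, 995 and 928 CPM in Wild type Hes1 loxP libraries. Its log2 fold change was -0.53 ± 0.09 (SE, edgeR adjusted p = 0.0136), and the call was lost without replicate 2 of Wild type Hes1 loxP (0.0606) or replicate 3 of Notch2 mutant Hes1 loxP (0.0571). Ctsl was the 1 gene of 10 called there, against 0.634% of all genes that were lower and 0.776% in either direction, with 5 of 10 and 1897 of all 13403 at an unadjusted p under 0.05, and DESeq2 and limma-voom also called 1. The Ctss groups did not overlap either, and its log2 fold change was -0.37 ± 0.09 (edgeR adjusted p = 0.0625), or -0.24 without replicate 1 of Wild type Hes1 loxP. With the replicate number as a block over all 12 libraries, Ctss was called, at -0.36 ± 0.07 (SE, edgeR adjusted p = 0.0211). The members called were then 2, Ctsl and Ctss. Same-numbered loxP libraries deviated together. Those of Wild type Hes1 deletion and Notch2 mutant Hes1 loxP did not (r = -0.0273, -0.260 and -0.191), so the block does not suit every group of that fit. Ctsa had 1124, 1021 and 1145 CPM in Notch2 mutant Hes1 loxP libraries, against 984, 924 and 1013 CPM in Wild type Hes1 loxP libraries. These did not overlap, and its log2 fold change was 0.17 ± 0.07 (edgeR adjusted p = 0.236). With Ctsl and Ctss that made 3 of 10 genes whose groups did not overlap, against 18.3% of all genes tested. The other 7 genes overlapped, with log2 fold changes from -0.22 (Ctsc) to 0.09 (Cst3).

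With Hes1 deleted, none of the 10 genes was called with the Notch2 mutation. Ctsl was at 640.3, 783 and 669 CPM in Notch2 mutant Hes1 deletion libraries, against 744, 771 and 1028 CPM in Wild type Hes1 deletion libraries, and the groups overlapped. Its log2 fold change was -0.28 ± 0.09 (SE, edgeR adjusted p = 0.650), and -0.12 without replicate 3 of Wild type Hes1 deletion. That of Ctss was -0.18 ± 0.09 (edgeR adjusted p = 0.755). EdgeR called 0 of 10, against 0.0149% of all genes, with 1 of 10 (Ctsl) and 897 of all 13403 at an unadjusted p under 0.05, and DESeq2 and limma-voom called 0. Ctsz was the 1 gene of 10 whose groups did not overlap, against 12.5% of all genes. It had 1226, 1225 and 1218 CPM in Notch2 mutant Hes1 deletion libraries, against 1173, 1187 and 1179 CPM in Wild type Hes1 deletion libraries.

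Whether the effect of the Notch2 mutation differed between Hes1 states was tested by the interaction. EdgeR called 0 of 10 genes and 0.00% of all 13403, with 0 of the 10 and 506 of all genes at an unadjusted p under 0.05, and DESeq2 and limma-voom called 0 of the 10. The interaction of Ctsl was 0.25 ± 0.13 on the log2 scale (SE, edgeR adjusted p = 0.999), with a 95% interval from -0.03 to 0.53, and 0.42 without replicate 3 of Wild type Hes1 deletion. The interval of Ctss ran from -0.08 to 0.45. A difference between Hes1 states was thus not shown for either gene, nor was its absence.

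The rest of the lysosome was compared through lists of genes. With Hes1 deleted, averaged over both genotypes, edgeR called 0 of 29 other lysosomal hydrolases and 0 of 14 lysosomal membrane genes, against 0.0821% of all genes. Their median log2 fold changes were -0.05 and -0.03, with 28 of 29 and 13 of 14 genes negative, against 6681 of all 13403. At an unadjusted p under 0.05 there were 6 hydrolases and 2 membrane genes, against 923 of all 13403. With the Notch2 mutation, averaged over both Hes1 states, 5 of 29 hydrolases rose, against 103 of all 13403 genes tested. Among them were Tpp1, a tripeptidyl peptidase (0.17), Glb1, beta-galactosidase (0.15), Scpep1, a serine carboxypeptidase (0.15), and Sgsh, a sulfatase (0.14). The edgeR adjusted p-values of these 4 lay between 0.0268 and 0.0369. Of the 29 hydrolases 25 were positive, with a median of 0.08, against 6758 positive of all 13403 genes. EdgeR calls among the hydrolases depended on single libraries. The count was 0 without replicate 1 or 2 of Wild type Hes1 loxP, replicate 3 of Notch2 mutant Hes1 loxP, or replicate 1 or 3 of Notch2 mutant Hes1 deletion. It was 1 without replicate 1 of Notch2 mutant Hes1 loxP or replicate 3 of Wild type Hes1 deletion, and 2 without replicate 2 of Wild type Hes1 deletion. DESeq2 called 8, and edgeR with no filter on low counts called 10. Of the membrane genes 2 of 14 rose, the tetraspanin Cd63 (0.15) and the chloride transporter Clcn7 (0.20), and the count was 0 without replicate 3 of Wild type Hes1 deletion or any of the 5 libraries that took the count of hydrolases to 0. Counted in either direction it was 1 without replicate 2 of Wild type Hes1 deletion, 4 with DESeq2 and 6 with no filter. At most 5 membrane genes rose under any alternative.

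**Figure D5:**
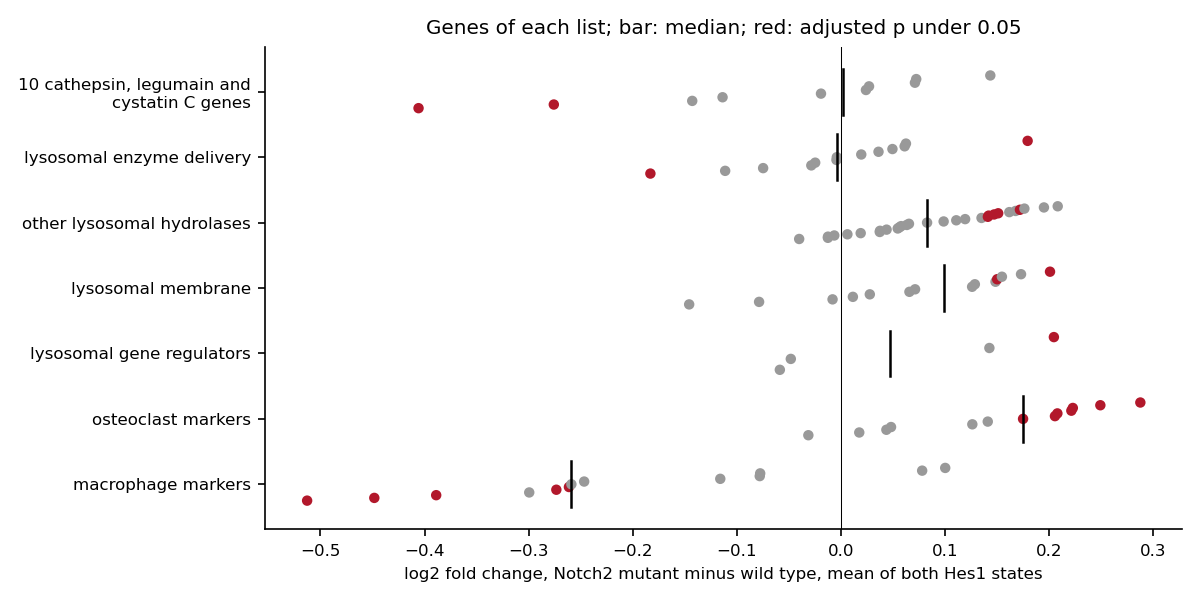
Log2 fold change of each gene with the Notch2 mutation, averaged over both Hes1 states, by list, with a bar at each list's median and called genes in red. The median lies at 0.08 for the hydrolases, at 0.18 for the osteoclast markers and at -0.26 for the macrophage markers.

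Genes that carry enzymes to the lysosome and regulators of lysosomal genes were mixed. Of 13 delivery genes, Gnptab, which makes the mannose 6-phosphate tag, rose (0.18) and Scarb2, the receptor of glucocerebrosidase, fell by 0.18 on the log2 scale. Of 4 regulators, Tfec, a relative of MITF, rose (0.20, edgeR adjusted p = 0.0328). Of all 13403 genes tested 103 rose and 150 fell. Of 19 alternatives Gnptab was called under 15, Tfec under 11 and Scarb2 under 10. Gnptab was lost without replicate 1 of Wild type Hes1 loxP or replicate 3 of any of the other 3 groups. Cstb, the cytoplasmic inhibitor of cathepsins, had log2 fold changes of 0.08 with the Notch2 mutation (edgeR adjusted p = 0.275) and -0.07 with the Hes1 deletion (edgeR adjusted p = 0.739). Ctsf had 0.43 ± 0.12 with the Notch2 mutation (SE, edgeR adjusted p = 0.0630), at mean levels from 5.90 to 8.30 CPM over the groups.

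Markers of other cells moved with the Notch2 mutation beside Ctsl and Ctss. Averaged over both Hes1 states, 11 of 13 macrophage markers were negative, against 6645 of all 13403 genes tested. EdgeR called 5 of the markers lower (Fcgr1, Mrc1, Ms4a7, Msr1 and Adgre1), against 150 of all genes. The count was 3 without replicate 1 of Wild type Hes1 loxP, 2 without replicate 3 of Notch2 mutant Hes1 deletion and 8 without replicate 1 of Notch2 mutant Hes1 loxP, with the replicate block or with no filter. The summed level of the list was 3519 to 3760.05 CPM in Notch2 mutant Hes1 deletion, 3606 to 3751 in Wild type Hes1 deletion, 3405 to 3831 in Notch2 mutant Hes1 loxP and 3803 to 4168 in Wild type Hes1 loxP libraries. In loxP cells alone edgeR called 4 macrophage markers lower (median -0.40), with 10 of 13 at an unadjusted p under 0.05, against 1897 of all genes. With Hes1 deleted it called 0 (median -0.11), with 2 of 13 under that p, against 897. The interaction had 4 of 13 under that p, against 506, and 0 called. Of 13 osteoclast markers, Ctsk among them, 7 were higher averaged over both Hes1 states, against 103 of all 13403 genes. The count was 1 without replicate 3 of Notch2 mutant Hes1 deletion, 3 without replicate 1 of Wild type Hes1 loxP or replicate 3 of Notch2 mutant Hes1 loxP, and 4 without replicate 2 of Wild type Hes1 loxP or replicate 1 of Notch2 mutant Hes1 deletion. Of 13 stromal and osteoblast markers 1 was lower, Cxcl12, with a log2 fold change of -2.79, and 12 were negative. That count was 5 without replicate 3 of Notch2 mutant Hes1 loxP, 4 without replicate 1 of Notch2 mutant Hes1 deletion, 3 without replicate 2 of Notch2 mutant Hes1 loxP and 2 without replicate 3 of Wild type Hes1 loxP or of Wild type Hes1 deletion. It was 4 with limma-voom or the replicate block, 3 with no scaling, 8 with no filter and 0 at a mean count of at least 50. EdgeR called 0 of 10 genes of MHC class II and dendritic cells, 0 of 10 of neutrophils and 0 of 3 of lymphocytes. At an unadjusted p under 0.05 there were 3, 4 and 0, against 2180 of all 13403 genes. With no filter edgeR called 3 of the first list and 6 of the neutrophil list. With the Hes1 deletion, averaged over both genotypes, edgeR called 0 genes of these lists other than Ctsk, while 10 of 10 genes of MHC class II and dendritic cells (median 0.25) and 13 of 13 stromal and osteoblast markers (median 0.34) were positive. All 13 osteoclast markers, Ctsk included, were negative (median -0.06, 3 at an unadjusted p under 0.05). Of 10 neutrophil genes 6 had an unadjusted p under 0.05 (median -0.29). Of all 13403 genes tested 6722 were positive, 6681 negative and 923 under that p. Of the macrophage markers 9 of 13 were negative (median -0.08, 1 under that p). In wild type cells 12 of 13 were negative (median -0.23), with 8 under that p, against 795 of all genes. In Notch2 mutant cells 9 of 13 were positive (median 0.05), with 2 under that p, against 638 of all genes. The list of MHC class II and dendritic cells differed by genotype as well. In wild type cells 10 of its 10 genes were positive (median 0.53), with 5 under that p. In Notch2 mutant cells 6 of 10 were positive (median 0.05), with 0 under that p. Its interaction was negative for 9 of 10 genes, with 4 under that p, against 506 of all genes. The stromal and osteoblast list summed to between 218 and 480.2 CPM in a library and the lymphocyte list to between 10.7 and 18.5 CPM, while Lum, Bglap and Cd3e of these lists were at or below 0.206 CPM in every library. The part of these cells in the values of Ctsl, Ctss and Ctsk was not tested.

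The genes whose pattern over the 12 libraries was most like that of a member were taken from 9162 genes by Pearson's r of log2 CPM, as a description. Ctsl was most like Uhrf1 (0.971), Ctss most like Hfe (0.932), Ctsb most like Litaf (0.949) and Cst3 most like Capg (0.950). Among the members, Ctsa and Ctsb were most alike (0.906). The r of a member with Ctsk ran from -0.408 (Ctsc) to 0.648 (Ctsz). Ctsz was more like Ctsk than like any other member, though its hundredth highest r over all genes was 0.740. The libraries share their 4 groups and their depth, and each value is the highest of many.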

How the data were processed

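RNA of osteoclast cultures was sequenced as stranded, paired-end 75 base reads, per the labels' protocols. The authors deposited raw counts per gene for each of 12 libraries. The submitters' processing notes name GRCm38 and, with no role or order, HTSeq, HISAT2, DESeq2, Picard and SAMtools. Versions and the strand setting: not given in the sources used here. The 5 summary lines of each file (15.8% to 19.0% of its total) were left out. Counts were fitted with edgeR 4.0.16 in R 4.3.3 (quasi-likelihood test, TMM, filterByExpr with minimum count 10 and minimum total 15), with all 4 groups in 1 fit. Genes were called at a Benjamini-Hochberg adjusted p under 0.05 over all 13403 genes. On simulated data for the averaged Hes1 deletion, 95% of 1.5-fold and 100% of 2-fold changes were recovered, and 11 of 206 calls were false. The changed genes had a mean count of at least 50. Smaller changes and comparisons of 3 against 3 libraries were not simulated. DESeq2 1.42.0 and limma-voom 3.58.1 were alternatives, with other scalings, filters and each library left out. The 10 genes, Ctsk and every list were taken by name. Members and lists were chosen with earlier results of these data known. Named genes were the members, Ctsk, called genes of a list (1 is not reported here), up to 4 further genes of a list by smallest adjusted p, and 1 most alike gene per member. Same-numbered Notch2 mutant and Wild type Hes1 loxP libraries deviated together (r = 0.285, 0.330 and 0.186). No label pairs them, and differently numbered libraries of the deletion groups reached r = 0.390, so whether the numbers mark pairs is not known. No other pair of groups had r over 0.1 in all 3. Lengths came from GENCODE M21 and promoters from RefSeq. Single-cell data were not analysed here.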

Additional observations from a re-analysis of the deposited data

How the results depend on the processing

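No direction of a called gene turned under the alternatives run. With no filter on low counts, the members called with the Notch2 mutation were 5 in loxP cells, 2 with Hes1 deleted and 5 averaged over both Hes1 states. With no filter, 1 member, Ctss, was called with the Hes1 deletion in wild type cells and also averaged over both genotypes. The cause was not tested. With no scaling beyond the library total, 2 members were called with the Notch2 mutation in loxP cells. Leaving out 1 library at a time gave 0 to 2 members with the Notch2 mutation in loxP cells and 1 to 2 averaged over both Hes1 states. The log2 ratio of the summed protease level, Hes1 deletion over loxP, was -0.0558 and ran from -0.0826 (without replicate 2 of Notch2 mutant Hes1 loxP) to -0.0352 over the libraries left out. With the replicate block, 2 members were called with the Notch2 mutation in loxP cells, and no other count of members called changed. Over all pairs of groups, 8 of 18 pairs with the same number had a correlation over 0.1 (-0.286 to 0.330). In 7 of these 18 cases the library of the first group was most like its own number in the other group. Interaction calls over all genes were 12 without replicate 3 of Wild type Hes1 deletion and 63 with no filter. Transcript length, taken over all exons, was an alternative chosen after seeing the data.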
